A study of Mus musculus with 12 samples.

Results

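The regions described here carried an H3K4me1 peak with S2101 and with vehicle, and no peak of H3K4me2 or H3K4me3 in either treatment. They were chosen by which peaks were listed, after the peaks of 6 lists had been pooled and those overlapping by 1 bp or more merged. Of 51372 merged regions, 8174 met this rule (15.9%, 95% Wilson interval 15.6 to 16.2%). Because H3K4me1 in both lists was the criterion for choosing them, its presence there is no finding, and the values below are descriptions without a test. With stricter rules their number was smaller, 2167 with H3K4me1 scores of at least 200 and 4178 with a reciprocal overlap of at least 50%. An absent peak means that no peak was listed, not that the mark was absent.

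The cells were C2C12, a mouse myoblast line that withdraws from the cell cycle and fuses into myotubes in low serum. They were changed to medium with 2% horse serum and given S2101, an inhibitor of the demethylase LSD1, at 10 µM, or vehicle, and were fixed after 48 h (day 2 of differentiation). Chromatin immunoprecipitation and sequencing (ChIP-seq) gave 1 library per mark and treatment, 6 peak lists in all, so no difference between treatments has a replicate check. H3K4me1 and H3K4me2 came from experiment 1 and H3K4me3 from experiment 2, so mark and experiment cannot be told apart. All groups share the cell line, medium, time and fixation, and the read depth behind the lists is unknown.

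Monomethylated lysine 4 of histone H3 is the typical mark of enhancers, both active and primed, and of the flanks of promoters. Dimethylation occurs at enhancers and promoters, and trimethylation marks active promoters. LSD1 (Kdm1a), part of the CoREST complex, removes methyl groups from mono- and dimethylated lysine 4 and cannot act on the trimethylated form. In differentiating muscle cells, distal elements with H3K4me1 are known as sites where MyoD and its partners bind.

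The 8174 regions held a large part of the S2101 list and a smaller part of the vehicle list. They took 9336 of the S2101 H3K4me1 peaks (45.2% of that list) and 8631 of the vehicle peaks (21.3%). Their peaks covered 4.39 Mb with S2101 and 7.21 Mb with vehicle, 47.1% and 26.8% of the length of the H3K4me1 lists. The summed length with S2101 was 0.610 times that with vehicle. Of the S2101 length in these regions, 86.0% lay inside vehicle peaks, and of the vehicle length 52.4% lay inside S2101 peaks. Regions without another mark numbered 4822 where H3K4me1 was listed with S2101 only and 18882 where it was listed with vehicle only. The regions with both treatments were therefore 62.9% of those listed with S2101 (62.1 to 63.7%) and 30.2% of those listed with vehicle (29.7 to 30.8%).

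Within a region, H3K4me1 usually occupied less sequence with S2101 than with vehicle. The median covered length was 446 bp with S2101 (quartiles 326 and 631) and 742 bp with vehicle (quartiles 517 and 1076). The lengths ran from 184 to 9431 bp with S2101 and from 217 to 8479 bp with vehicle, so the distributions overlapped widely. The ratio of covered length, S2101 over vehicle, had a median of 0.633 (95% interval of the median 0.624 to 0.640, counting error only; quartiles 0.461 and 0.843). On the 19 autosomes the median ratio lay between 0.598 and 0.695. The covered length was smaller with S2101 in 7024 of the 8174 regions (85.9%), larger in 1138 (13.9%) and equal in 12. It was under 0.5 times that with vehicle in 2500 regions (30.6%) and over 2 times in 31 (0.379%). Over all 12134 regions with H3K4me1 in both treatments, the background shares were 88.5% smaller, 11.4% larger, 36.5% under 0.5 times and 0.338% over 2 times. The choice of regions used the same lists, so nothing is read from the difference. Peak length depends on the depth of a library, which is unknown here.

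**Figure D1:**
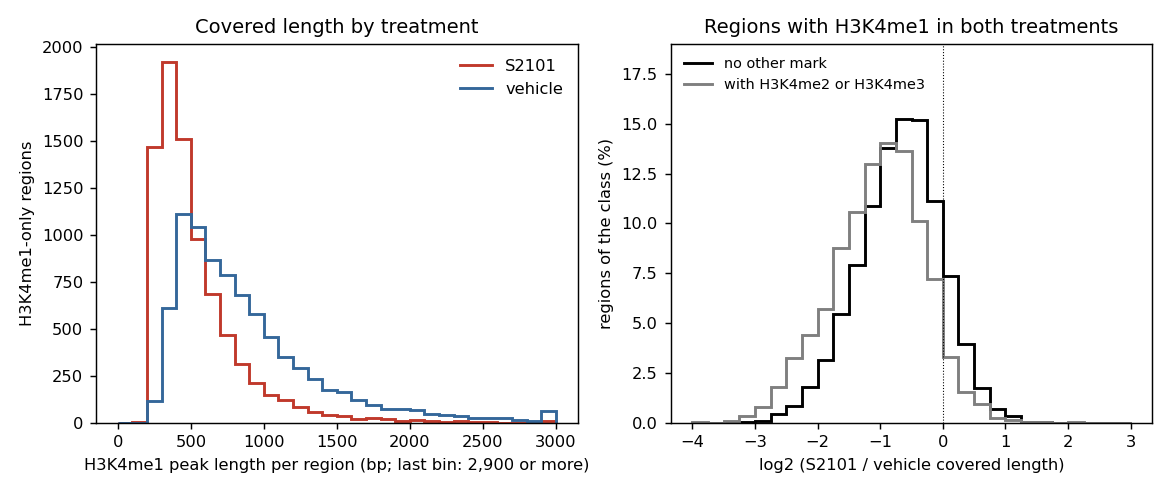
Left, number of regions by the length that H3K4me1 peaks covered in each (bp), for S2101 and vehicle in the 8174 regions without another mark. Right, percentage of regions by log2 ratio of covered length, S2101 over vehicle, for these regions and for the 3960 that also held H3K4me2 or H3K4me3. The S2101 lengths lie lower (median 446 bp, against 742 bp with vehicle), and most ratios lie below 0 on the log2 scale.

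The 3960 regions that had H3K4me1 in both treatments together with H3K4me2 or H3K4me3 are the most similar class. The median ratio was 0.633 without another mark and 0.508 (0.499 to 0.518) with one, a difference of 0.125. Covered lengths with another mark had medians of 540 bp with S2101 and 1293 bp with vehicle. The median score percentile in the vehicle list was 71.7 without another mark and 85.7 with one. Since the ratio varied with the vehicle score in both classes, they were also set side by side within deciles of that score. Across the 8174 regions that score had a Spearman rho of 0.88 with the vehicle covered length. The deciles therefore also largely rank the length by which the ratio is divided. Without another mark the median ratio was lower in each higher decile. With one it was 0.968 in the lowest decile, 0.421 in the ninth and 0.487 in the highest, which held 1590 of the 3960 regions. The median ratio was then higher without another mark in all 10 deciles, with differences from 0.0029 in the highest decile to 0.139. The mean difference was 0.0892 with all deciles weighted equally, although the lowest held only 77 regions with another mark. The difference of 0.125 was 0.0677 when peaks within 1000 bp were merged and 0.0501 when the vehicle list was cut to the number of S2101 peaks. Regions without another mark were joined by H3K4me1 peaks alone, so each of their vehicle peaks overlapped an S2101 peak. Peaks of H3K4me2 or H3K4me3 can also join in H3K4me1 peaks without a partner in the other treatment. The 3960 regions held 6418 vehicle and 6025 S2101 H3K4me1 peaks, and the 8174 held 8631 and 9336. How much of the difference comes from this joining was not tested. None of these differences has a test, and the comparison within deciles was chosen after the lists had been seen.

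In most regions H3K4me1 formed a single peak in each treatment. This was so in 6914 regions (84.6%, 83.8 to 85.4%), and in 42.8% when peaks within 1000 bp were merged. There the S2101 peak had a median width of 408 bp, against 676 bp for the vehicle peak, and was narrower in 85.8%. The S2101 peak lay wholly inside the vehicle peak in 3486 of them (50.4%), and the reverse held in 256 (3.70%). In the other 3172 (45.9%) each peak extended past the other at one end. The middles of the peaks were 121 bp apart at the median (quartiles 54 and 228), and the signed offset had a median of −0.75 bp. Where the S2101 peak was nested, the vehicle peak reached a median of 161 bp beyond it on the side of lower coordinates and 164 bp on the other. A reciprocal overlap of at least 50% was met by 3756 pairs (54.3%).

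**Figure D2:**
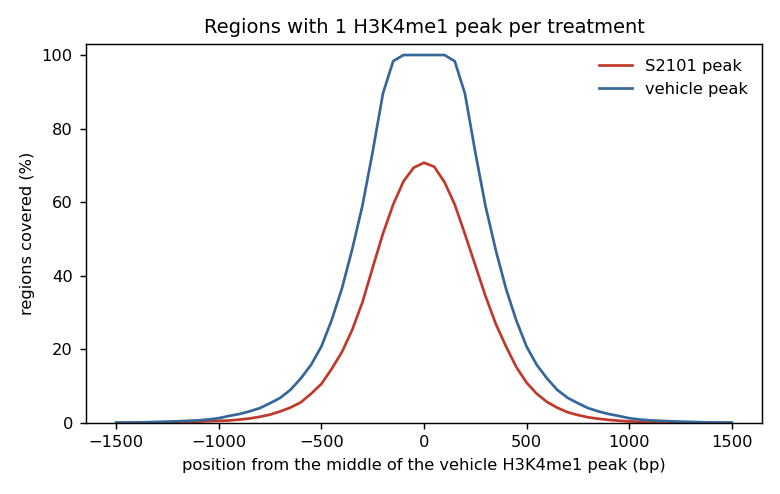
Percentage of the 6914 regions with 1 H3K4me1 peak per treatment that were covered by the S2101 or the vehicle peak, by position in bp from the middle of the vehicle peak. The vehicle curve is 100% at the centre by construction, and the S2101 curve reaches 70.7% there and 34.5% at 300 bp to the right, against 58.9% for the vehicle peak.

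Several S2101 peaks facing 1 vehicle peak were more frequent than the reverse. By the merging rule, several peaks of 1 treatment share such a region only where a peak of the other treatment joins them. Vehicle H3K4me1 peaks were wider, with a median of 535 bp over the list, against 384 bp with S2101. The excess is therefore not read as peaks having split. In 814 regions (9.96%) 2 or more S2101 peaks faced 1 vehicle peak, and in 265 (3.24%) 1 S2101 peak faced 2 or more vehicle peaks. A further 181 (2.21%) had several peaks in both. In these 814 regions neighbouring S2101 peaks were separated by a median of 159 bp (quartiles 63 and 326, 930 gaps), and the vehicle peak had a median width of 1331 bp. The S2101 peaks together covered 0.694 times the vehicle length at the median.

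The authors' scores rank peaks within a list, so they are given as percentiles of the own list. The best peak of a region had a median percentile of 58.7 in the S2101 list (quartiles 33.0 and 80.2) and of 71.7 in the vehicle list (46.6 and 87.1). In the regions listed with S2101 only the median was 32.0, and in those listed with vehicle only it was 37.5. By the merging rule such regions hold a single peak each, while some of the 8174 hold several, of which the best was taken. The higher percentiles of the 8174 are therefore not read as a finding. Of the 2066 S2101 peaks in the highest decile of that list, 1033 (50%) lay in the regions described here. Another 985 (47.7%) lay in regions with H3K4me1 in both treatments and another mark, and 43 (2.08%) in regions listed with S2101 only. Of all S2101 H3K4me1 peaks these classes held 45.2%, 29.2% and 23.3%. Of the 4043 vehicle peaks in the highest decile, 1627 (40.2%) lay here, 1841 (45.5%) in regions with H3K4me1 in both treatments and another mark, and 384 (9.50%) in regions listed with vehicle only. Of all vehicle H3K4me1 peaks these classes held 21.3%, 15.9% and 46.7%. Across the 8174 regions the S2101 and vehicle scores had a Spearman rho of 0.36, and the covered lengths one of 0.49. These are descriptions across regions that share both libraries.

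The score of the vehicle peak went with whether S2101 listed the region and with how much it covered. Among regions with vehicle H3K4me1 and no other mark, 10.7% (9.63 to 11.8%) of the lowest vehicle decile were also listed with S2101, 21.8% of the fifth and 80.8% (79.0 to 82.4%) of the highest. The median ratio of covered length was 0.987 in the lowest decile and 0.490 in the highest. In the highest decile the regions covered a median of 700 bp with S2101, against 1473 bp with vehicle, and in the lowest 347 bp with S2101, against 341 bp with vehicle. Ranking by S2101 score gave the opposite slope. The median ratio was 0.487 in the lowest S2101 decile and 0.800 in the highest, and 40.7% and 95.8% of the regions in these deciles were also listed with vehicle. Each ranking uses the peaks that enter the ratio, so the slopes are not read as a response to S2101. Across the 8174 regions score also went with covered length (Spearman rho 0.88 with vehicle and 0.84 with S2101). An overlap of 1 bp was enough to be listed in both treatments. How far peak length accounts for the shares also listed was not tested.

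**Figure D3:**
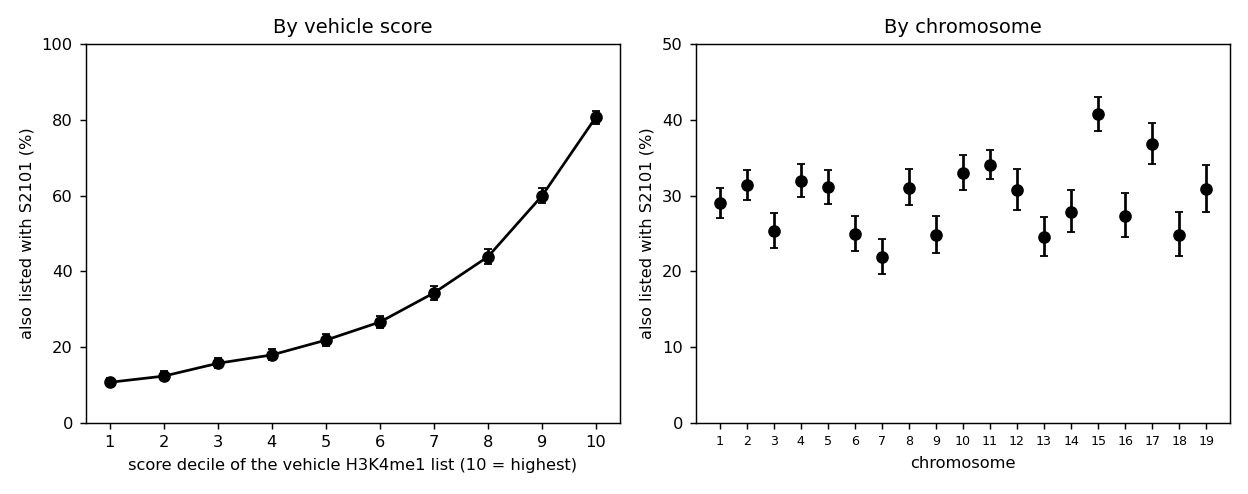
Percentage of regions with vehicle H3K4me1 and no other mark that were also listed with S2101, by score decile of the vehicle list (left) and by chromosome (right), with 95% Wilson intervals. The share runs from 10.7% to 80.8% over the deciles, and chromosome 15 (40.7%) and chromosome 7 (21.9%) are the extremes among autosomes.

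By the smaller of the lengths in the treatments, 5 regions (mm9 coordinates, 1-based) were the most extensive. On chromosome 11 (3039389 to 3048917) H3K4me1 covered 9431 bp with S2101 and 8479 bp with vehicle. Its scores were 259.9 with S2101 and 166 with vehicle, the 85.9 and 43.7 percentiles of the lists, below those of the 4 regions that follow. Without it the median ratio of all regions was 0.633. On chromosome 2 (35529434 to 35537344) 8 S2101 peaks covered 4244 bp, against 7779 bp in 2 vehicle peaks, with best scores of 467 and 3054. On chromosome 17 (27291539 to 27296741) 4 S2101 peaks covered 4111 bp of a single vehicle peak of 5203 bp, and the scores were 913 and 2956. This region lay 48 bp from an H3K4me2 peak. On chromosome 15, the region at 75651353 to 75655872 had 3755 bp with S2101 and 4520 bp with vehicle, and its vehicle score of 3188 was the highest among the 8174. Also on chromosome 15, the region at 77639183 to 77645956 had 3374 bp in 6 S2101 peaks and 6774 bp in 1 vehicle peak, and an H3K4me2 peak lay 1 bp away.

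Ranked by the lower of the score percentiles, the leading region was again the one on chromosome 17 at 27291539. It was followed by chromosome 18 (32554439 to 32557841), with 3061 bp with S2101 and 3198 bp with vehicle and scores of 1049 and 1949.6. A region on chromosome 15 (83403642 to 83407041) had 2177 bp with S2101 and 3051 bp with vehicle, and scores of 1151 and 1846. Chromosome 10 held the other two, at 92736879 to 92740375 (2598 bp with S2101, 3496 bp with vehicle) and at 79407081 to 79410311 (2901 bp with S2101, 3002 bp with vehicle). All 5 stood between the 99.7 and 99.9 percentiles of both lists. Their ratios of covered length, S2101 over vehicle, lay between 0.714 and 0.966, all above the median of the 8174 regions. The ranking asks for a high S2101 score, and in the highest S2101 decile the median ratio was 0.800. Lying above the median is therefore not read as particular to these 5.

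Regions with little listed with S2101 and a large vehicle peak form the other end. Of 2448 regions with at least 1000 bp covered in some treatment, the lowest ratio, 0.0908, was on chromosome 4 (43989944 to 43993594), with 326 bp with S2101 and 3591 bp with vehicle. Its score was 128 with S2101 and 1288 with vehicle, the 40.3 and 99.2 percentiles. On chromosome 1 (64897290 to 64899792) an S2101 peak of 264 bp with a score of 104 lay in a vehicle peak of 2503 bp with a score of 1152. Ratios between 0.111 and 0.122 were found on chromosome 4 (151595025 to 151597177), chromosome 2 (35287950 to 35290217) and chromosome 1 (194610911 to 194613425). In these 3 the S2101 peak measured 240 to 303 bp and the vehicle length 2153 to 2480 bp. The vehicle peaks of all 5 stood between the 95.2 and 99.2 percentiles of their list. At least 1000 bp and a low ratio require a large vehicle length, and vehicle score went with length (Spearman rho 0.88). These percentiles therefore largely follow from the choice of regions.

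Regions with more H3K4me1 length with S2101 than with vehicle were fewer. Among the same 2448 regions, with at least 1000 bp covered in some treatment, the highest ratio, 3.30, was on chromosome 4 (134747910 to 134748967), with 1016 bp and a score of 278 with S2101, and 308 bp and a score of 102 with vehicle. On chromosome 15 (77679883 to 77681363) the S2101 peak had 1473 bp and a score of 709, the 99.5 percentile, while the vehicle peak had 616 bp and a score of 177. On chromosome 10 (3231360 to 3232567) H3K4me1 covered 1208 bp with S2101 and 510 bp with vehicle. On chromosome 17 (79861872 to 79862950) it covered 1062 bp with S2101 and 453 bp with vehicle, and on chromosome 2 (166799557 to 166801364) 1639 bp with S2101 and 713 bp with vehicle. The next highest ratios of these 2448 regions, 2.39, 2.37, 2.34 and 2.30, belong to the other 4. The S2101 peaks of the 5 lay between the 88.1 and 99.5 percentiles of their list, and the vehicle peaks between the 2.40 and 63.7 percentiles. At least 1000 bp and a high ratio require a large S2101 length, and S2101 score went with length (Spearman rho 0.84). The percentiles of both lists therefore largely follow from the choice of regions.

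Most of the 8174 regions lay away from the peaks of the other marks. The median gap to the nearest H3K4me3 peak of either treatment was 24972 bp (95% interval 24201 to 26019), and to the nearest H3K4me2 peak 10683 bp (10092 to 11127). For regions listed with S2101 only these medians were 26979 and 13251 bp, and for those listed with vehicle only 29438 and 14671 bp. An H3K4me3 peak lay within 10 kb of 26.9% of the regions (25.9 to 27.8%; 14.2 to 33.7% over autosomes), against 25.9% with S2101 only and 24.9% with vehicle only. For H3K4me2 the shares within 10 kb were 48.7% (47.6 to 49.8%), 43.4% and 41.5%. Within deciles of the vehicle score, the regions of both treatments exceeded those of vehicle only by a mean of 4.30 percentage points for H3K4me2. The difference was positive in all 10 deciles, between 0.0781 and 6.59 points. For H3K4me3 the mean difference was 0.851 points, positive in 7 of 10 deciles, between −2.45 and 6.49 points. The ratio of covered length had similar medians at all distances from H3K4me3: 0.645 up to 2 kb (532 regions), 0.620 from 2 to 10 kb (1664), 0.629 from 10 to 50 kb (3535) and 0.647 beyond (2443).

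**Figure D4:**
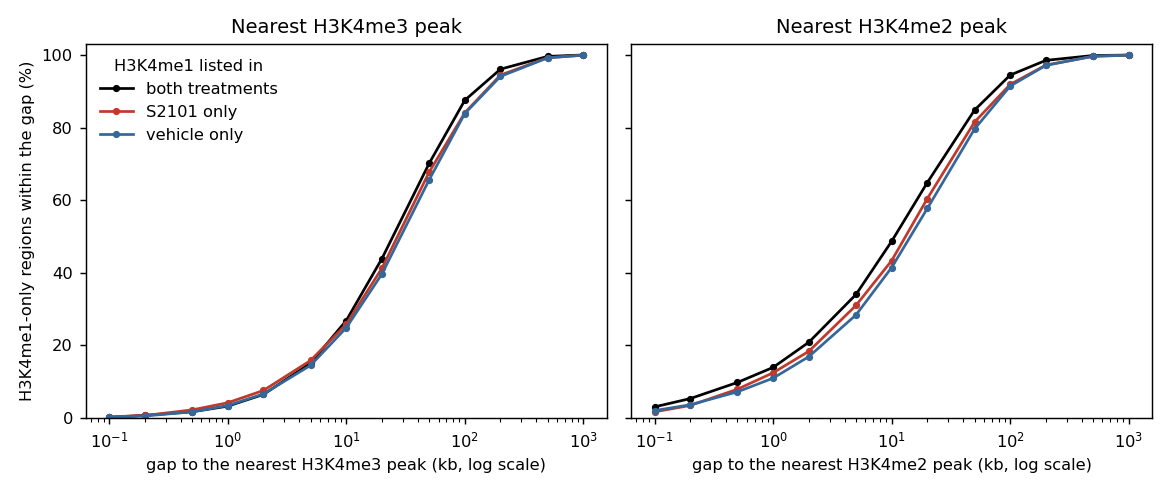
Cumulative percentage of H3K4me1-only regions by gap in kb (log scale) to the nearest H3K4me3 (left) or H3K4me2 peak (right), for regions listed in both treatments, with S2101 only and with vehicle only. At 10 kb the curves stand at 26.9, 25.9 and 24.9% for H3K4me3 and at 48.7, 43.4 and 41.5% for H3K4me2.

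The 3 regions farthest from H3K4me3 lay about a megabase from its nearest peak. On chromosome 14 (23902556 to 23903353), 1087 kb from the nearest H3K4me3 peak, H3K4me1 covered 289 bp with S2101 and 798 bp with vehicle. A pair on chromosome 10, at 16264296 to 16265293 and at 16271945 to 16272980, lay 1004 and 996 kb away. The first had 518 bp with S2101 and 998 bp with vehicle, and the second 646 bp with S2101 and 575 bp with vehicle.

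Where H3K4me2 lay close by, it was often listed with vehicle alone, here and beside the other H3K4me1-only regions. The H3K4me2 lists themselves differed, with 24444 peaks of median width 552 bp with S2101 and 21447 of 1342 bp with vehicle. The vehicle-only share over all H3K4me2 peaks was not computed, so nothing particular to these regions is read from the shares. Of the 1707 regions with an H3K4me2 peak within 2 kb, 710 (41.6%, 39.3 to 43.9%) had one there in both treatments, 104 (6.09%) with S2101 only and 893 (52.3%, 49.9 to 54.7%) with vehicle only. The vehicle-only share was 45.3% (42.1 to 48.6%) beside regions whose H3K4me1 was listed with S2101 only and 51.4% (49.6 to 53.1%) beside those listed with vehicle only. The median ratio of H3K4me1 length was 0.646 beside H3K4me2 of both treatments and 0.620 beside H3K4me2 of vehicle only.

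Many of the regions lay close together. Another of them lay within 10 kb of 4755 regions (58.2%, 57.1 to 59.2%), a share of 33.4% when peaks within 1000 bp were merged. Close neighbours were also common in the wider class, so closeness is not read as particular to these regions. Of 27056 regions with vehicle H3K4me1 and no other mark, 6502 had no other region of that class within 10 kb. The same held for 1258 of the 8174. Of the 8174, 1757 (21.5%) belonged to 336 groups of 4 or more chained at gaps of at most 10 kb. Regions in such groups covered a median of 498 bp with S2101 and 864 bp with vehicle, and those standing alone 415 bp with S2101 and 677 bp with vehicle. Their ratios were nearly equal, 0.618 (0.606 to 0.639) in the groups and 0.635 (0.621 to 0.648) alone. Being listed in both treatments also varied with the neighbour. Among regions with vehicle H3K4me1 and no other mark, 40.9% (39.7 to 42.0%) were also listed with S2101 when their nearest such neighbour within 10 kb was, and 29.8% (29.0 to 30.6%) when it was not. The difference was positive on all 19 autosomes, between 0.316 and 20.3 percentage points. Within deciles of the vehicle score it averaged 6.88 points and was positive in all 10 (2.83 to 10.5). Regions with no such neighbour were also listed with S2101 in 19.3%. The neighbour comparison was chosen after the lists had been seen and has no test.

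The group with the most regions, 15, spanned 73541 bp on chromosome 14 (26527410 to 26600950). H3K4me1 of these regions covered 9729 bp with S2101 and 21039 bp with vehicle, 0.462 times as much, and the length was smaller with S2101 in all 15 regions. The length was smaller with S2101 in 85.9% of all 8174 regions. The ratio within the group ran from 0.183 to 0.970. The lowest was at 26592463 to 26594377, with 350 bp and a score of 101 with S2101 and 1915 bp and a score of 1206 with vehicle. The highest was at 26596014 to 26596857, with 676 bp with S2101 and 697 bp with vehicle, and nearly equal scores of 293.7 and 294. At 26570380 to 26573330, 2 S2101 peaks of 923 bp in all faced the widest vehicle peak of the group, of 2951 bp. Within the same span lay no region listed with S2101 only, 7 listed with vehicle only, and 4 regions with another mark.

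**Figure D5:**
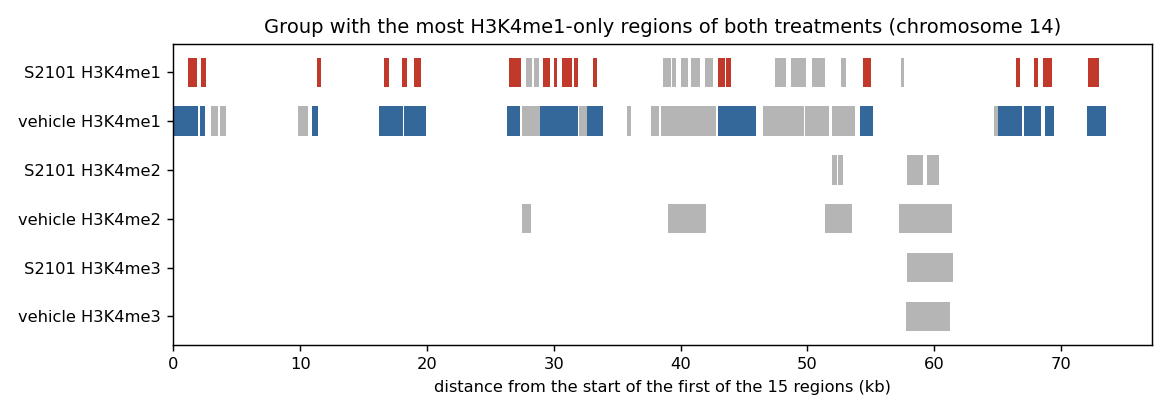
Peaks of the 6 lists along the chromosome 14 group, by distance in kb from the start of its first region. Red (S2101) and blue (vehicle) bars are peaks of the 15 H3K4me1-only regions, and grey bars are other peaks, including those of H3K4me2 and H3K4me3. The S2101 bars sum to 9729 bp and the vehicle bars to 21039 bp.

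Both groups of 14 regions lay on chromosome 15. The one at 77692882 to 77724122 held 9593 bp with S2101 and 12310 bp with vehicle, a ratio of 0.779, with 13 of 14 regions shorter with S2101, 2 regions of S2101 only and none of vehicle only. The one at 58806194 to 58851694 held 10999 bp with S2101 and 14765 bp with vehicle, a ratio of 0.745, with 12 of 14 regions shorter with S2101, 3 regions of S2101 only and 9 of vehicle only. The 3 groups thus differed in how much of the vehicle length was listed with S2101, and there is no replicate to give this an error. Of all 8174 regions, 85.9% were shorter with S2101, so the counts of shorter regions are not read as particular to these groups.

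Chromosomes differed in the share of regions found in both treatments. Of the regions with vehicle H3K4me1 and no other mark, 40.7% (38.5 to 43.0%) were also listed with S2101 on chromosome 15, 36.8% (34.1 to 39.6%) on chromosome 17 and 34.0% on chromosome 11. The share was 21.9% (19.7 to 24.2%) on chromosome 7, and the median over the 19 autosomes was 30.8%. From the S2101 side, 73.6% of the regions on chromosome 15 and 49.5% on chromosome 7 were also listed with vehicle. Averaged over the deciles of the vehicle score, the shares were 37.5% on chromosome 15, 36.8% on chromosome 17 and 27.0% on chromosome 7. The X chromosome held 8 of the regions and unplaced sequence 7. On chromosome 15 the regions covered 562 bp with S2101 and 938 bp with vehicle at the median, and on chromosome 7 they covered 331 bp with S2101 and 575 bp with vehicle.

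At the edge of the rule, some regions were kept or lost by few bases. The smallest overlap between treatments among the members was 1 bp, on chromosome 13 (35258217 to 35258944), on chromosome 16 (57418273 to 57419101) and on an unplaced part of chromosome 1. In 148 of the 8174 regions the shared length was under 50 bp. Just outside the rule, an S2101 peak on chromosome 19 (41063876 to 41064181) touched the start of a vehicle peak (41064182 to 41064616) without overlap. Such pairs also lay on chromosome 3 (S2101 95906389 to 95906867, vehicle from 95906868) and chromosome 6 (S2101 54725387 to 54725630, vehicle from 54725631). Of the 18882 regions with vehicle only, 254 (1.35%) lay within 100 bp of a region with S2101 only and 1426 (7.55%) within 1000 bp. On the other side of the rule, 262 of the 8174 regions (3.21%) had an H3K4me2 or H3K4me3 peak within 100 bp, and 1160 (14.2%) within 1000 bp.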

How the data were processed

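Each deposited file is a peak list with chromosome, start, end, name and a score, the authors' own value per peak. MACS in Galaxy called them, per the file headers, with 1 file per library. The build is mm9, and Bowtie2 and deepTools are named, per the submitters' processing notes. How settings, inputs, duplicates and read depth stood is not given in the sources used here. Scores start at 100, and 1 of the 8174 regions reached 3100, where many scores of the H3K4me3 lists stand. Of 12 samples, the 4 inputs and 2 H3 samples were not analysed here.

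The merging and distances were checked on simulated lists and against bedtools 2.31.1. Covered length is the sum of peak lengths, as peaks of a list never overlap. Score percentiles are mid-ranks within a list, and a decile is 10 percentiles. Intervals are 95% Wilson for shares and binomial order-statistic for medians. They cover counting error only and treat regions as independent. Neighbouring regions are not independent, so the intervals may be too narrow even for that error. Regions were named by ranks (length, score, ratio, group size, distance, overlap). Members, lists and rules were chosen with earlier results of these data known. The gene table and sequences at hand are of GRCm38, so no gene names, sequences or check of cell type markers are given. Scripts ran in Python 3.11.15 with pandas 2.3.3, scipy 1.17.1 and numpy 2.4.6, and figures were drawn with matplotlib 3.10.9.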

Additional observations from a re-analysis of the deposited data

How the results depend on the processing

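The number of regions depended on the rule. It was 2717 with scores of at least 200 in all 6 lists, 2167 with that limit on H3K4me1 alone and 4178 with a reciprocal overlap of 50%, and within 1.5 times of 8174 under the other alternatives run (5949 to 8159). The median ratio of covered length, S2101 over vehicle, was below 1 in all alternatives run. Values follow in the order score of 200 in all lists, score of 200 for H3K4me1, merging within 1000 bp and reciprocal overlap. The last value is for the vehicle list cut to the number of S2101 peaks. The median ratio was 0.659, 0.675, 0.536, 0.769 and 0.569. The difference from regions with another mark was 0.175, 0.164, 0.0677, 0.261 and 0.0501 in the same order. The comparison class was not restricted by reciprocal overlap, so 0.261 sets a filtered class against an unfiltered one. Shares with less length under S2101 were 86.7% (score of 200 in all lists), 87.6% (merging), 79.0% (reciprocal) and 91.1% (cut list). Single peaks per treatment were found in 88.4%, 89.8%, 42.8%, 89.9% and 82.6%, in the order of the 5 alternatives above. H3K4me3 lay within 10 kb of 29.2% (score of 200 for H3K4me1), 20.4% (merging) and 19.6% (no other mark within 2000 bp), within 5 kb of 15.1% and within 20 kb of 43.9%. Another member lay within 10 kb of 44.1%, 39.1%, 33.4%, 39.5% and 53.5% in the order of the 5 alternatives and of 53.4% with no other mark within 2000 bp, within 5 kb of 48.2% and within 20 kb of 68.3%. The cause of these differences was not tested. Autosomes only, leaving out the widest region, the score-held comparisons, the comparison by nearest neighbour and its distances, and the 6 rules as applied to the share with another member within 10 kb were chosen after seeing the data. No paired analysis was possible because each mark and treatment has 1 library, and no replicate could be left out. The unknown depth limits every length and count.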
